A study of Mus musculus with 6 samples.

Results

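The 10 genes described here carry iron into the cell, store it, send it out again or set the balance between these steps. They are the transferrin receptor gene Tfrc, the metal transporter gene Slc11a2, the ferritin genes Fth1 and Ftl1, the ferritin cargo receptor gene Ncoa4, the ferroportin gene Slc40a1, the ferroxidase gene Heph, the hepcidin gene Hamp, and the genes Aco1 and Ireb2 of the iron regulatory proteins. They were taken by symbol from a deposited table of 54532 genes, and all 10 were found. Their levels were compared between mouse heart muscle cells in which Gdf11 was lowered and control cells.

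Iron reaches most cells bound to transferrin, enters through the transferrin receptor, and crosses the endosome membrane through DMT1, the product of Slc11a2. Iron that is not used is held inside ferritin, a shell of heavy (Fth1) and light (Ftl1) chains, and NCOA4 carries ferritin to the lysosome when iron is needed. Ferroportin is the known exporter, and hepcidin, a hormone that heart muscle can also make, removes it from the membrane. Iron regulatory proteins 1 (Aco1) and 2 (Ireb2) bind RNA hairpins called iron-responsive elements when iron is scarce. Bound in front of the coding sequence they block translation, and bound behind it they protect the transcript from decay.

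The cells were primary ventricular cardiomyocytes of C57BL/6J mice aged 1 day, and RNA was taken 48 h after the hairpins were added at a multiplicity of infection of 200. There were 2 groups of 3 libraries: shGDF11, with a short hairpin RNA against Gdf11, and control, with the hairpin named sh-nc in the labels. The protocol text calls the control hairpin sh-Vector. The libraries of a group carry numbers, and the labels do not say whether these mark hairpin sequences or separate cultures, or whether mice were pooled. The p-values therefore measure the spread between these libraries, which may be technical. Every group had a hairpin, so there were no untreated cells.

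Levels are FPKM, fragments scaled to gene length and to library size, and each library held 15267083 to 16152910 reads in the listed genes. Gdf11 itself averaged 2.46 ± 0.260 FPKM in the control libraries and 0.665 ± 0.0986 FPKM after knockdown, 27.1% of control. Values of this form are the mean and SD over n = 3 libraries. All 8 cardiomyocyte markers were measured, with summed levels of 7679 to 8006 FPKM in control and 6543 to 6853 FPKM in shGDF11. That sum follows Actc1, which fell from 4187 to 2766 FPKM: 3 of the 8 markers (Myl2, Myl7 and Tnni3) rose, 2 (Actc1 and Ryr2) fell, and their median log2 fold change was 0.16. Markers of other cells were present too. Their summed levels in control and shGDF11 were 291 to 346 and 368 to 386 FPKM for fibroblasts, 1017 to 1095 and 409 to 415 FPKM for smooth muscle, and 68.8 to 74.7 and 48.6 to 51.9 FPKM for endothelium. The smooth muscle sum is mostly Acta2, which fell from 993 to 370 FPKM, and of those 8 markers 5 fell while Rgs5, Pdgfrb and Notch3 were not called. Of the 8 endothelial markers 5 fell (Tie1, Cdh5, Kdr, Pecam1 and Egfl7) and 3 were not called, with a median log2 fold change of -0.43. Of the 8 fibroblast markers 2 rose (Col3a1 and Col1a2) and 6 were not called. The test given below called 62.5% each of the cardiomyocyte, smooth muscle and endothelial markers. It called 25% of the fibroblast markers and 27.6% of all tested genes. Ribosomal RNA genes took 0.298% to 0.319% of reads in control and 0.470% to 0.502% in shGDF11. The part of these shifts in the results below was not tested.

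Transcripts of 4 of the 10 genes held the letters of an iron-responsive element, and these are shown because they are the letters through which the iron regulatory proteins are known to act. The search covered protein-coding transcripts of the GENCODE M21 annotation of GRCm38, on the transcript's own strand. It asked for a C, then 5 bases, then CAGTG and any base, then 5 bases that pair with the first 5 (G-U pairs allowed). The capitals below mark the C that bulges from the stem and the 6 bases of the loop, and all runs have 29 bases, 5′ to 3′, written as DNA.
Tfrc, chr16:32631219-32631247, plus strand, 3′ UTR: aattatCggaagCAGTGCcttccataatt
Tfrc, chr16:32631598-32631626, plus strand, 3′ UTR: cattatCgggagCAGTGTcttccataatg
Tfrc, chr16:32631663-32631691, plus strand, 3′ UTR: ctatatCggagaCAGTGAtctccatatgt
Tfrc, chr16:32631710-32631738, plus strand, 3′ UTR: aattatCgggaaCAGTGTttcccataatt
Fth1, chr19:9982732-9982760, plus strand, 5′ UTR: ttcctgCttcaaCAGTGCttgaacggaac
Ftl1, chr7:45459779-45459807, minus strand, 5′ UTR: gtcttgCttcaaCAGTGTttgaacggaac
Slc40a1, chr1:45925465-45925493, minus strand, 5′ UTR: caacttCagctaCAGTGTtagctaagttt

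The letters are rare. Of 21901 protein-coding genes, 0.142% had a match in a 5′ UTR and 0.589% in a 3′ UTR. With at least 4 of the 6 bases on each side of the hairpin also pairing, 7 genes kept a 5′ UTR match, among them Fth1, Ftl1, Slc40a1, the ferritin copy Ftl1-ps1, the heme synthesis gene Alas2 and Ppp1r1b. The elements of the ferritin chains shared 26 of 29 bases with each other, and that of Slc40a1 shared 13 of 29 bases with each of them. Slc11a2, Ncoa4, Heph, Hamp, Aco1 and Ireb2 had no match, which says only that these letters are not in the transcripts searched. The search allowed no unpaired base among the pairs next to the loop, so a hairpin with a further bulge there would be missed. Whether these genes carry an element of another form was not tested.

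Of the 9 genes other than Hamp, Ncoa4 and Ftl1 rose in shGDF11 and Tfrc and Slc40a1 fell. Hamp was also called higher, but it had 1 to 9 reads per library, passed the filter on low values only through the shGDF11 group, and lost its call in 7 of 16 alternative settings. Fth1, Slc11a2, Heph, Aco1 and Ireb2 were not called. A gene was called at an adjusted p under 0.05 by limma's moderated test on log2(FPKM + 0.5), with Benjamini-Hochberg adjustment over 15418 genes that had a mean of at least 0.5 FPKM. All 10 genes passed that filter. The same test called 27.6% of all tested genes, 14.4% as higher and 13.1% as lower, so that 4 of 9 genes, or 5 of 10 with Hamp, is to be read beside a broad response. After rescaling to TPM, 66.3% of all called genes were higher, against 52.4% here, and the same 5 of the 10 genes were called. For 6 of the 9 genes, and for Hamp, every shGDF11 library lay on 1 side of every control library, against 45.8% of all tested genes. The median log2 fold change of the 10 genes was 0.09, beside 0.01 for all tested genes.

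**Figure D1:**
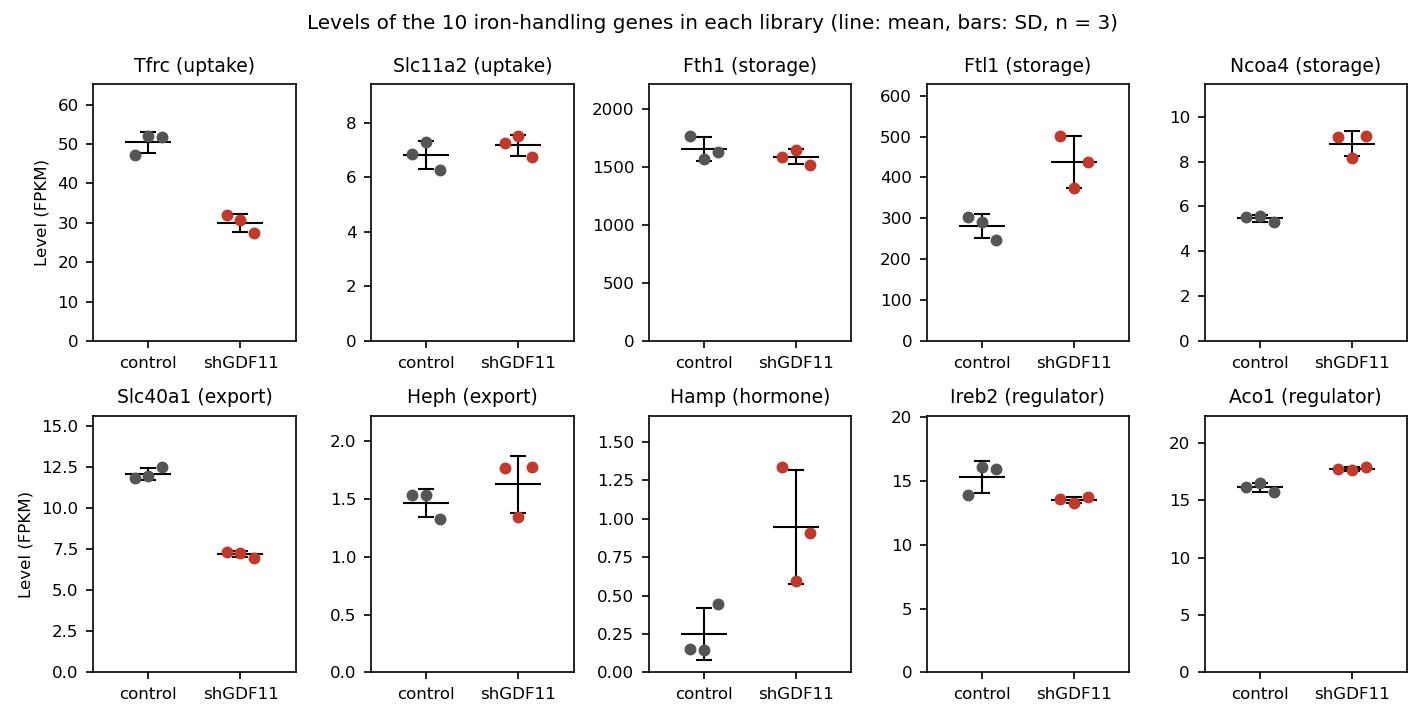
Levels (FPKM, vertical axes from 0, a scale of its own for each gene) of the 10 iron-handling genes in the 3 control and 3 shGDF11 libraries. Points are libraries, the long line is the mean and the bars are the SD; Tfrc and Slc40a1 sit lower in all shGDF11 libraries, Ftl1, Ncoa4 and Hamp higher, and Fth1, Slc11a2 and Heph overlap.

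In uptake, the receptor fell and the transporter did not change detectably. Tfrc was at 47.3, 52.1 and 51.8 FPKM in the control libraries and at 31.9, 30.7 and 27.4 FPKM in the shGDF11 libraries. Every shGDF11 library lay below every control library. The mean fell from 50.4 ± 2.69 to 29.998 ± 2.32 FPKM, or to 59.5% of control. On the log2 scale the difference was -0.74 ± 0.0762 (SE; limma adjusted p = 0.00106), and it ranged from -0.79 to -0.66 over 18 alternative settings, in all of which Tfrc was called. By exact permutation of the library labels, two-sided, p was 0.1 for each of the 7 genes without overlap, the smallest that 3 against 3 libraries allow. Tfrc (ENSMUSG00000022797) lies on the plus strand of chromosome 16 at 32608920 to 32632794 and is the gene with the 3′ UTR elements shown above. In these bulk libraries, fewer cells of a type and less RNA per cell cannot be told apart.

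Slc11a2, on the minus strand of chromosome 15, was at 6.84, 7.31 and 6.28 FPKM in control and 7.25, 7.52 and 6.74 FPKM in shGDF11. The groups overlapped, and the log2 fold change was 0.07 (95% interval -0.12 to 0.26, limma adjusted p = 0.545). An opposite-strand gene, Gm5475, covers 6.33% of its exon bases and had 0 to 3 reads per library.

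In storage, the light chain of ferritin rose while the heavy chain stayed within the spread. Fth1 was the most abundant of the 10 genes, above 99.9% of all tested genes. It was at 1773, 1573 and 1633 FPKM in control and 1594, 1653 and 1523 FPKM in shGDF11, and the groups overlapped. Its log2 fold change was -0.06 (95% interval -0.25 to 0.13, limma adjusted p = 0.614), and 0.031 after rescaling to TPM.

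Ftl1 (chromosome 7, 45457944 to 45459884, minus strand) was at 304, 291 and 248 FPKM in control. In shGDF11 it was at 502, 374 and 438 FPKM, a wide spread that did not reach the control values. The mean rose from 281 ± 29.7 to 438 ± 63.7 FPKM, or to 156% of control (log2 fold change 0.63 ± 0.126 SE, limma adjusted p = 0.0114). Over 18 alternatives the log2 fold change ran from 0.53 to 0.74 and the limma adjusted p reached 0.0451, without shGDF11 replicate 3. The gene's own level is uncertain, because 84.8% of the 75-base stretches of its longest coding transcript also occur in 8 other genes. Stretches were counted on either strand, so the share includes genes that overlap Ftl1 as well as copies elsewhere. Those 8 genes held 1.16% to 1.73% as many reads as Ftl1 in each library. Their reads were mostly those of Ftl1-ps1, at 80, 89 and 55 reads in control and 112, 107 and 119 in shGDF11. Of the Ftl1 exon bases, 26.5% lie opposite Gm10252, which had 5 to 22 reads per library. Gm22133, a microRNA gene on the same strand, covers 8.13% and had 0 reads. Gm10252 and Gm22133 are among the 8 genes and are not copies elsewhere. With the reads of all 8 genes added, Ftl1 was still called (limma adjusted p = 0.0117).

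Ncoa4, whose protein hands ferritin to autophagy, was at 5.51, 5.59 and 5.30 FPKM in control and 9.08, 8.17 and 9.15 FPKM in shGDF11. The control libraries lay close together and all shGDF11 libraries lay above them. The mean rose from 5.47 ± 0.150 to 8.80 ± 0.549 FPKM, or to 161% of control (log2 fold change 0.64 ± 0.0705 SE, limma adjusted p = 0.00128). It was called in all 18 alternatives. Ncoa4 shares 41.4% of its 75-base stretches with Gm6768, a processed pseudogene on chromosome 12. Gm6768 held 147, 205 and 171 reads in control and 307, 295 and 297 in shGDF11, which was 18.1% to 23.5% of the Ncoa4 reads in each library. With those reads added, the limma adjusted p of Ncoa4 was 0.00106.

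In export, the exporter itself fell. Slc40a1 (chromosome 1, 45908068 to 45926523, minus strand) was at 11.8, 11.96 and 12.5 FPKM in control and 7.35, 7.27 and 6.98 FPKM in shGDF11. The libraries of each group lay close together and the groups were far apart. The mean fell from 12.1 ± 0.352 to 7.20 ± 0.197 FPKM, or to 59.6% of control (log2 fold change -0.71 ± 0.0596 SE, limma adjusted p = 0.000571). It was called in all 18 alternatives, with log2 fold changes from -0.76 to -0.64.

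Macrophages are a known source of ferroportin, so their markers are given beside it. Of 8 macrophage markers 7 passed the filter, and 3 of them fell: C1qa from 9.51 to 5.68 FPKM, C1qb from 11.7 to 6.46 FPKM and Mrc1 from 1.92 to 1.30 FPKM. That is 42.9% of the tested markers called, all as lower, beside 27.6% of all tested genes called and 13.1% called as lower. Csf1r and Adgre1 were not called, at 2.36 and 2.37 FPKM and at 0.902 and 0.929 FPKM in control and shGDF11, and Cd68 and Cd14 were not called either. Ptprc, the pan-leukocyte marker, was at 0.113 and 0.103 FPKM, below the filter. The summed macrophage markers ran from 53.4 to 62.0 FPKM in control and from 41.2 to 46.4 FPKM in shGDF11, and their part in the fall of Slc40a1 was not tested.

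Heph, hephaestin, oxidises iron as it leaves through ferroportin. It was low, at 1.54, 1.53 and 1.33 FPKM in control and 1.76, 1.34 and 1.77 FPKM in shGDF11, and the groups overlapped. Its log2 fold change was 0.11 (95% interval -0.19 to 0.41, limma adjusted p = 0.571).

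Hamp, the hepcidin gene on chromosome 7, was near the lower limit of detection. It had 1, 1 and 3 reads in the control libraries and 9, 4 and 6 reads in the shGDF11 libraries, or 0.155, 0.146 and 0.449 FPKM against 1.34, 0.596 and 0.907 FPKM. All shGDF11 libraries lay above all control libraries. Scaled to depth, shGDF11 held 3.78 times the reads of control (95% exact interval 1.36 to 12.9, for counting error alone), and the log2 fold change with the pseudocount was 0.94 (limma adjusted p = 0.0360). The call was lost without control replicate 1 (limma adjusted p = 0.0817), without control replicate 2 (0.0980) and without shGDF11 replicate 3 (0.0995). Without shGDF11 replicate 1 the gene fell below the filter. It was also lost on recovered reads by limma voom (adjusted p = 0.0923) and with the replicate block (limma adjusted p = 0.0559). The neighbouring copy Hamp2, which shares 3.87% of the Hamp stretches, had 6 reads in shGDF11 replicate 1 and 0 in each other library.

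Transcripts of the iron regulatory proteins were not called in either direction, and protein was not measured. Ireb2 was at 13.9, 16.1 and 15.9 FPKM in control and 13.6, 13.3 and 13.7 FPKM in shGDF11. The highest shGDF11 value lay just below the lowest control value, that of control replicate 1. The log2 fold change was -0.17 (95% interval -0.34 to 0.01, limma adjusted p = 0.133), and without control replicate 1 it was -0.23 and was called (limma adjusted p = 0.0213). Aco1, which is cytosolic aconitase when it holds its iron-sulfur cluster, was at 16.2, 16.5 and 15.7 FPKM in control and 17.7, 17.6 and 17.9 FPKM in shGDF11. These groups did not overlap either, but the log2 fold change of 0.13 (95% interval 0.01 to 0.26 before adjustment) was not called (limma adjusted p = 0.107).

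**Figure D2:**
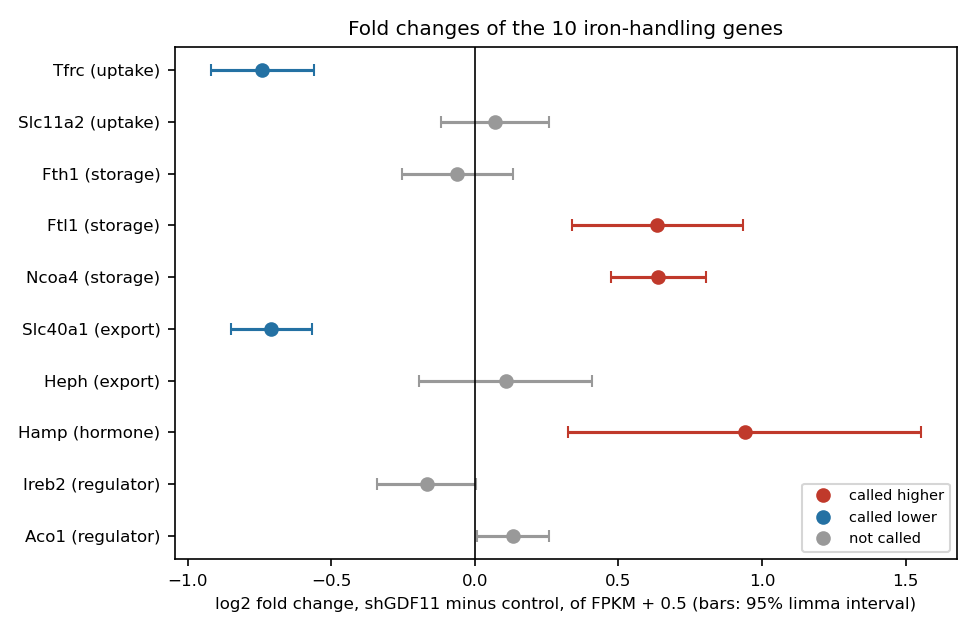
Log2 fold changes (horizontal axis, shGDF11 minus control, of FPKM + 0.5) of the 10 iron-handling genes, with limma's 95% intervals, 3 libraries in each group. Tfrc (-0.74) and Slc40a1 (-0.71) lie left of 0 and Ftl1 (0.63), Ncoa4 (0.64) and Hamp (0.94, the widest interval) right of it, while the interval of Fth1 spans 0.

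Read by the position of the matched letters, Tfrc, with matches in the 3′ UTR, fell. Genes with an element of another form cannot be placed by this search. Slc11a2, the transporter of uptake, had no match and was not called (log2 fold change 0.07, limma adjusted p = 0.545). The genes with a 5′ UTR match differed among themselves: Ftl1 rose, Slc40a1 fell and Fth1 was not called. RNA levels cannot show a block of translation, the effect described above for binding in front of the coding sequence. Of 6 other transcripts described with an iron-responsive element, 5 were tested. Pfn2, a profilin gene, fell from 17.5 ± 1.01 to 12.8 ± 0.526 FPKM (limma adjusted p = 0.00448). Cdc14a, Cdc42bpa and Epas1 were not called, with log2 fold changes of 0.15, -0.26 and 0.06. Pfn2 and these 3 genes had no match to the letters searched in either UTR. Alas2, the erythroid form of the first enzyme of heme synthesis, had 1 to 18 reads in a library and did not pass the filter.

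Ratios taken within a library do not depend on how libraries are scaled to each other, and are given as a description. There were 5.83, 5.40 and 6.59 heavy-chain FPKM for each light-chain FPKM in the control libraries and 3.18, 4.41 and 3.48 in the shGDF11 libraries. The heavy-to-light ratio was thus lower in every shGDF11 library. The ratio of Tfrc to Fth1 was 0.0267, 0.0331 and 0.0317 in control and 0.0200, 0.0186 and 0.0180 in shGDF11, again without overlap. The ratio of Tfrc to Slc40a1 was 4.004, 4.35 and 4.15 in control and 4.33, 4.23 and 3.93 in shGDF11. Receptor and exporter thus kept overlapping proportions as both fell. The ratio of Ireb2 to Aco1 was 0.858, 0.973 and 1.02 in control and 0.768, 0.753 and 0.769 in shGDF11.

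**Figure D3:**
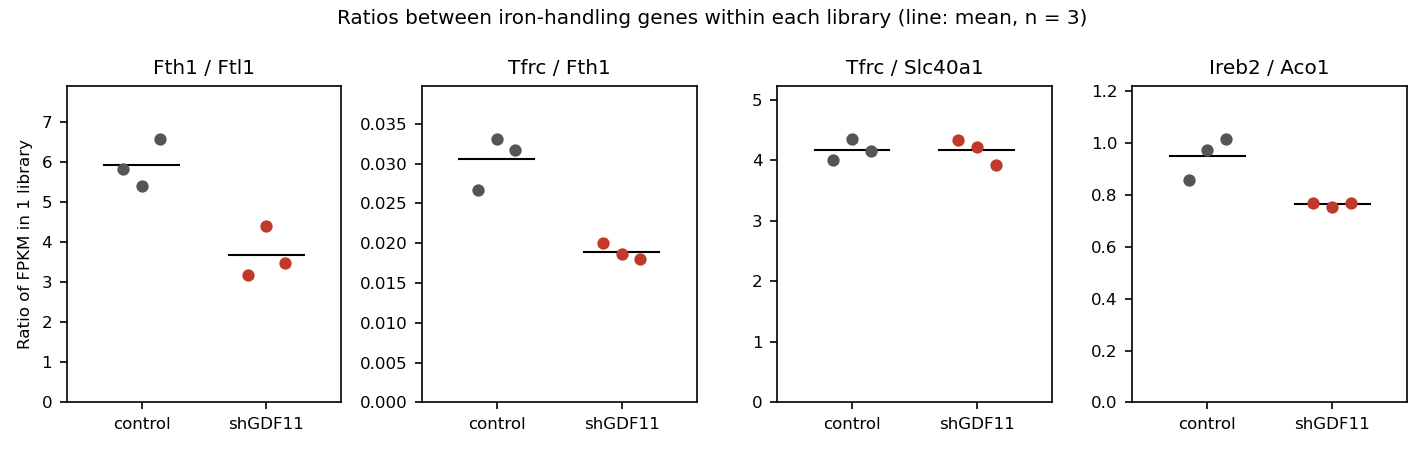
Ratios of FPKM (vertical axes from 0) between pairs of iron-handling genes within each of the 3 control and 3 shGDF11 libraries; points are libraries and lines are means. The ratios Fth1 to Ftl1, Tfrc to Fth1 and Ireb2 to Aco1 are lower in every shGDF11 library. The ratio of Tfrc to Slc40a1 overlaps, at 4.004 to 4.35 in control and 3.93 to 4.33 in shGDF11.

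Other genes of iron handling were read from 6 lists with 85 symbols, of which 74 passed the filter, and 11 of them rose and 10 fell. That is 28.4% called, near the 27.6% of all tested genes. Their median log2 fold change was -0.03, beside 0.01 for all tested genes. Without shGDF11 replicate 2 the counts were 4 and 6, and without shGDF11 replicate 3 there were 6 rises.

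Regulators of hepcidin held the largest rise. Hfe, the membrane protein that binds the transferrin receptor and is mutated in hereditary hemochromatosis, was at 4.38, 3.49 and 4.84 FPKM in control and 12.01, 12.8 and 11.8 FPKM in shGDF11. Every shGDF11 library lay far above every control library, and the log2 fold change was 1.43 ± 0.112 (SE, limma adjusted p = 0.000448). Neo1, neogenin, a receptor of the BMP co-receptor hemojuvelin, rose from 16.6 ± 1.26 to 26.7 ± 0.998 FPKM (limma adjusted p = 0.00118). Hemojuvelin itself, Hfe2 in the table, averaged 32.4 ± 4.62 and 27.8 ± 0.368 FPKM, a difference that missed the threshold (limma adjusted p = 0.162). Bmp6, the BMP ligand that induces hepcidin in the liver, fell from 6.04 ± 0.889 to 4.50 ± 0.287 FPKM (limma adjusted p = 0.0392). The Bmp6 call was lost in 8 of 17 alternatives, with limma adjusted p up to 0.128: with no filter, on the TPM scale, with no variance trend, with the replicate block, and on leaving out control replicate 2 or any 1 library of shGDF11. In all, 2 of 8 tested regulators rose and 1 fell, or 37.5% called beside 27.6% of all tested genes. Furin, which cleaves hepcidin precursor, was at 29.9 ± 4.32 and 23.0 ± 1.93 FPKM and just missed the threshold (limma adjusted p = 0.0508).

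Of 13 other uptake genes tested, 2 rose and 2 fell, or 30.8% called beside 27.6% of all tested genes. Lcn2, lipocalin 2, which binds the iron carriers of bacteria, fell from 49.2 ± 3.45 to 17.6 ± 0.859 FPKM (log2 fold change -1.46, limma adjusted p = 0.000127). Slc11a1, the phagosomal metal transporter of macrophages, fell from 1.92 ± 0.118 to 1.04 ± 0.192 FPKM (limma adjusted p = 0.0109), beside the macrophage markers given above. Steap4 and Steap1, of the family of metalloreductases, rose from 5.35 ± 0.592 to 8.02 ± 0.891 FPKM and from 7.18 ± 0.788 to 10.3 ± 1.26 FPKM (limma adjusted p = 0.0114 and 0.0188). The Steap1 call was lost on leaving out control replicate 2 or either of shGDF11 replicates 1 and 2 (limma adjusted p up to 0.0591). Steap3, the reductase of the transferrin cycle in red cell precursors, averaged 5.99 ± 0.552 and 6.59 ± 0.661 FPKM, with overlapping groups. Tfr2, the second transferrin receptor, had 12 to 34 reads in a library and did not pass the filter.

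In storage beyond the 10 genes 14.3% of tested genes were called, and in export and heme handling 0%, beside 27.6% of all tested genes. Of 7 other storage and chaperone genes tested, only Bola2 was called, from 7.78 ± 0.740 to 9.53 ± 0.398 FPKM (limma adjusted p = 0.0425). The Bola2 call was lost in 9 of 17 alternatives, with limma adjusted p up to 0.133. It was lost with no filter, on the TPM scale, with no variance trend and with the replicate block. Leaving out any 1 library other than control replicate 3 also removed the call. The iron chaperone genes Pcbp1 and Glrx3 and the NCOA4 ubiquitin ligase gene Herc2 missed the threshold, at log2 fold changes from -0.15 to -0.10. Of 10 other export and heme genes tested by limma, 0 were called. At an unadjusted limma p under 0.05 there were 4, and limma voom on recovered reads called 2 as lower. Hmox1, heme oxygenase 1, was at 159 ± 20.4 and 154 ± 7.09 FPKM, and its groups overlapped. Ceruloplasmin (Cp), another ferroxidase, was at 3.51 ± 0.629 and 2.67 ± 0.149 FPKM (limma adjusted p = 0.102), and Blvrb at 8.43 ± 1.65 and 5.91 ± 0.483 FPKM (limma adjusted p = 0.0522). Flvcr2 and Slc48a1, which move heme, were not called, with log2 fold changes of 0.26 and 0.18.

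The mitochondrial list had 6 rises and 6 falls among 31 genes tested, or 38.7% called beside 27.6% of all tested genes, which were themselves near even in direction. Cisd1, mitoNEET, an iron-sulfur protein of the outer membrane, was at 71.9, 74.3 and 73.1 FPKM in control and 45.6, 43.5 and 45.3 FPKM in shGDF11, with a log2 fold change of -0.70 ± 0.0513 (SE, limma adjusted p = 0.000361). Tmem14c, which moves a heme precursor into mitochondria, fell from 80.8 ± 7.93 to 58.6 ± 4.63 FPKM (limma adjusted p = 0.0114). The heme synthesis genes Alad and Cpox rose from 11.8 ± 0.216 to 15.4 ± 0.717 FPKM and from 15.1 ± 0.508 to 18.9 ± 0.928 FPKM (limma adjusted p = 0.00531 and 0.0108), and Cpox was not called without shGDF11 replicate 2 (limma adjusted p = 0.0518). Hspa9, Isca2 and Lyrm4 were among the other rises, and the other falls were Abcb8, Ppox, Cisd2 and Nfs1. The rises were 1 without shGDF11 replicate 2 and 2 without shGDF11 replicate 3, and the falls were 3 without shGDF11 replicate 2. The mitochondrial iron importer genes Slc25a37 and Slc25a28 were not called. Red cell precursors, which use the same pathway for hemoglobin, left almost no signal: the summed levels of 7 erythroid markers were 0.125 to 0.464 FPKM in control and 0.570 to 0.968 FPKM in shGDF11.

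**Figure D4:**
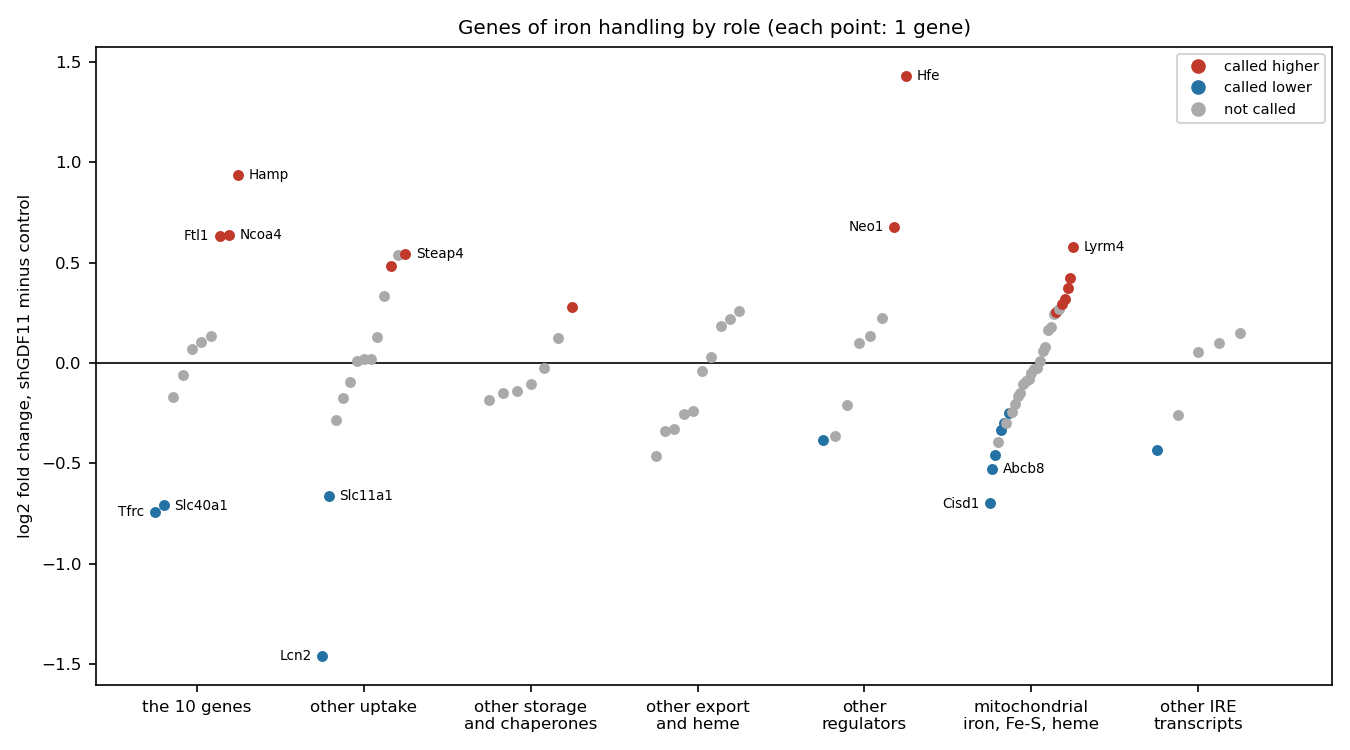
Log2 fold changes (vertical axis, shGDF11 minus control, of FPKM + 0.5) of the 10 iron-handling genes and of the 6 further lists; each point is 1 tested gene, red called higher, blue called lower and grey not called. Hfe (1.43) is the highest point and Lcn2 (-1.46) the lowest, and the mitochondrial genes spread to both sides of 0.

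By Pearson correlation of log2(FPKM + 0.5) over the 6 libraries, the protein-coding genes of at least 5 FPKM most like Tfrc were Luc7l, Cops8 and Ccl7, with r of 0.998, 0.998 and 0.997. Luc7l fell from 11.4 to 9.26 FPKM and Ccl7 from 48.2 to 16.7 FPKM, while Cops8, at 20.7 and 18.4 FPKM, was not called (limma adjusted p = 0.0539). In all, 346 of 7387 genes had r of at least 0.95 with Tfrc, and 11 with Fth1, led by Tceal8, Tmem9 and BC005624 (r of 0.993, 0.988 and 0.976). These values describe 6 libraries in 2 groups, which the genes share.

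Promoter windows of 7 of the 10 genes were found in RefSeq's GRCm38.p6 annotation, each from 250 bases before to 50 bases after a start. They were searched on both strands for ACGTG and GCGTG, the core letters of the hypoxia response element, since Tfrc is a known target of that pathway, and for TGACNNNGC, the core of the antioxidant response element. ACGTG was in windows of Tfrc and Ncoa4 and in 19.6% of all 32851 windows. GCGTG was in windows of Tfrc, Ncoa4, Ftl1 and Fth1 and in 32.4% of all windows. TGACNNNGC was in a window of Ncoa4 and in 12.4% of all windows. The percentages count windows, and a gene with several windows could match in any of them. Ncoa4 had 3 windows, Tfrc and Fth1 had 2 each, and Ftl1, Hamp, Ireb2 and Aco1 had 1 each. An ACGTG match of Tfrc and of Ncoa4 is shown with the letters in capitals, and that of Tfrc falls in both windows of that gene.
Tfrc, chr16:32608882-32608911, plus strand: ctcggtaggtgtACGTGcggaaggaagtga
Ncoa4, chr14:32165709-32165738, plus strand: agggggagggagACGTGacgcgcgcaaggc
Of the genes with ACGTG, Tfrc fell and Ncoa4 rose. Among those with GCGTG, Tfrc fell, Ncoa4 and Ftl1 rose and Fth1 was not called. Whether these letters have a part in the changes was not tested. For Slc40a1, Slc11a2 and Heph no window was searched.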

How the data were processed

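The authors deposited FPKM values for 54532 Ensembl genes in 6 libraries. Tools listed in the submitters' processing notes are HISAT2 2.0.5, CASAVA 1.8 and featureCounts 1.5.0-p3, with mm10 and GRCm38 as builds. For the annotation release and strand setting, nothing is given in the sources used here. Gene length in bases stands in the deposited table. The table listed 27 gene names as dates, and their symbols were looked up by gene identifier. Of 54409 identifiers also in GENCODE M21, 53499 had the same coordinates. FPKM times length gave whole reads (within 0.05) for 100% of values.

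Samples were grouped by treatment label. The test, limma 3.58.1 in R 4.3.3, took log2(FPKM + 0.5) of genes averaging 0.5 FPKM or more (eBayes with a variance trend, two-sided, Benjamini-Hochberg). This scale understates changes of low genes. On simulated reads with the means of the real libraries, of 100 genes changed 2-fold 96 were recovered, of 100 changed 1.5-fold 56, with 17 false calls among 15533 genes. The changed genes all had a mean of at least 100 reads, and the same dispersion was used for every gene. Far fewer genes were changed than were called in the real libraries. The recovery therefore does not cover low genes such as Hamp. A count test was not used as the main test because the unit is FPKM. The members and gene lists were chosen with earlier results of these data known. Named genes were the 10 members, Gdf11, the 4 genes of each list with the smallest p, copies and overlapping genes, and the 3 genes most like Tfrc and Fth1; other list genes were named after their values were seen, and some list genes are not reported here. Protein sequences were not used here.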

Additional observations from a re-analysis of the deposited data

How the results depend on the processing

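The calls of Tfrc, Slc40a1, Ftl1 and Ncoa4 held in all 18 alternatives, of which the addition of reads from copies was chosen after the data were seen. Fth1 turned from -0.06 to 0.031 on the log2 scale after rescaling to TPM, which moved the median of all tested genes from 0.01 to 0.09. Hamp lost its call with no filter on low values (0.94), on recovered reads by voom (1.69), with the replicate block (0.94) and with reads of copies added (1.13), and leaving out 1 library gave 0.84 to 1.12, with no value without shGDF11 replicate 1. Ireb2 was called with library weights (-0.22), and leaving out 1 library gave -0.23 to -0.13. Hamp and Heph had no value when a mean of 5 FPKM was required. The cause was not tested. The replicate numbers are not known to pair the libraries: deviations of same-numbered libraries correlated at 0.0153, 0.0149 and -0.0521. The block left the 5 calls among the 10 genes at 4 and changed no other call among them. Of all tested genes, 1474 were higher when a mean of 5 FPKM was required (fewer genes tested) and 1242 lower after rescaling to TPM. Leaving out 1 library gave 2346 to 4238 calls, 1263 to 2252 higher and 1083 to 1986 lower. Of the other iron genes, 6 fell after rescaling to TPM, 16 with library weights and 17 by voom. Leaving out 1 library gave 10 to 22 calls there, 4 to 12 higher and 6 to 11 lower. At these depths a floor of 3 reads is 0.180 to 0.191 FPKM for a gene of 1 kb, which limits what can be said of Hamp.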
